A study of Mus musculus with 4 samples.

Results

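TRIM proteins are a large family of ubiquitin ligases built from a RING domain, B-boxes and a coiled coil, to which most members add a C-terminal domain that picks the substrate. In T cells and other immune cells several of them, among them Trim21, Trim25 and Trim30a, act in antiviral sensing or restrain it, and many of these genes are themselves induced by interferon. Mid1 and its relatives carry a COS box that binds microtubules, as do the muscle RING fingers Trim54 and Trim63, and the TIF1 branch works on chromatin. The family was defined here by gene symbol: every probe set assigned to 1 gene whose symbol is Trim with a number, or Mid1 or Mid2. This gave 60 genes on 116 probe sets, of 18193 genes on 34945 single-gene probe sets.

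The arrays came from CD4 single-positive thymocytes of B6 mice, sorted as CD25-, CD1dPBS57- and gdTCR-. The KO arrays are from CD4 Cre+ Cul3fl/fl mice and the LM arrays from CD4 Cre- Cul3fl/fl mice, with 2 arrays in each group, so both groups carry floxed Cul3 and no array carries Cre without it. An effect of Cre and one of losing Cul3 cannot be told apart. CD4-Cre is active in thymocytes from the CD4+ CD8+ stage on, so deletion is not limited to the sorted cells. The sources used here do not give the age or sex of the mice, whether cells were pooled, or whether the arrays of a group are separate animals. The p-values therefore describe only how far these arrays spread, which may be technical.

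The deposited values are linear signals, and differences are KO minus LM on log2(signal + 16) after quantile normalization, which understates changes of dim genes. A gene was represented by its brightest probe set and tested if it exceeded background on at least 2 arrays. Background was set per array from 80 probe sets of odorant and vomeronasal receptors, at their 95th percentile, which was 97.5 and 83.4 on the KO arrays and 109 and 85.2 on the LM arrays. The targeted gene Cul3 read 5380 and 5577 on the arrays labelled KO, against 5333 and 5724 on the LM arrays (-0.01 ± 0.09, log2 difference ± SE, limma adjusted p = 0.994). Its 4 other probe sets differed by 0.31, 0.07, -0.02 and -0.15, none called in limma on separate probe sets (adjusted p from 0.677 to 0.997). The sources used here do not say which exons were deleted or where the probes lie, and a probe outside the deleted exons checks nothing. Groups are therefore called by their labels. For the labelled cell type, 6 of 6 named CD4 T cell markers were above background, with summed signals of 41790 and 38664 on the arrays labelled KO and 40126 and 41867 on the LM arrays. Markers of other cells were also above background on at least 2 arrays: 3 of 3 for CD8 T cells, 5 of 6 for double-positive thymocytes (not Ptcra), 2 of 2 for NKT cells, 1 of 2 for gamma delta T cells (Sox13, not Il17a), 1 of 3 for B cells (Cd79a, not Cd79b or Ms4a1) and 3 of 6 for myeloid cells (Cd68, Lyz2 and Csf1r, not Itgax, Flt3 or Itgam). So were 1 of 2 erythroid markers (Alas2, not Hba-a1) and 1 of 4 thymic epithelium markers (Epcam, not Krt5, Krt8 or Foxn1). For NKT cells the summed signals were 1203 and 1116 on the arrays labelled KO and 999 and 902 on the LM arrays. Of these markers Il2rb was higher on the arrays labelled KO (0.40) and Zbtb16 lower (-0.49). For CD8 T cells the summed signals were 2352 and 2007 on the arrays labelled KO and 2212 and 2115 on the LM arrays. For B cells they were 150 and 192 on the arrays labelled KO and 180 and 135 on the LM arrays, and for myeloid cells 446 and 453 on the arrays labelled KO and 499 and 572 on the LM arrays. The part of these cells in the results was not tested. The ratio of 3′ to 5′ signal of the Gapdh control, a sign of RNA quality, was 2.59 and 2.70 on the arrays labelled KO and 2.63 and 2.93 on the LM arrays.

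Of the 60 family genes, 38 were tested and 22 were not. The untested genes were Mid2, Trim6, Trim7, Trim9, Trim10, Trim15, Trim16, Trim31, Trim40, Trim42, Trim43a, Trim45, Trim46, Trim47, Trim60, Trim61, Trim63, Trim66, Trim67, Trim69, Trim75 and Trim80. Their brightest probe sets read 2.1 to 138 over the 4 arrays. Of these 22 genes, 17 were below background on every array, 4 exceeded it on 1 array labelled KO and 1, Trim69, on 1 LM array. Trim30b and Trim34b are named only on probe sets shared with another gene and are not counted among the 60.

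One member differed past the threshold. Mid1, a microtubule-bound ubiquitin ligase that targets the catalytic subunit of phosphatase PP2A through the adaptor alpha4, read 913 and 1118 on the arrays labelled KO, against 251 and 275 on the LM arrays. Both KO values lay above both LM values, and the groups averaged 10.01 ± 0.21 and 8.13 ± 0.15 (log2 mean ± SD, n = 2 each). Mid1 rose by 1.88 ± 0.22 (log2 difference ± SE, limma adjusted p = 0.00285), a 3.69-fold difference with a 95% interval of 2.65-fold to 5.13-fold. The Mid1 start printed below lies on the X chromosome. Where the rest of the gene lies, and its copy number in these mice, were not examined. All 3 probe sets of Xist, the RNA of the inactive X, were below background on the 4 arrays. Both probe sets of the Y-linked Eif2s3y were above it. In bulk RNA, more cells with the transcript and more transcript per cell cannot be told apart.

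The other Mid1 probe sets gave less. The second one above background read 243 and 305 on the arrays labelled KO, against 169 and 276 on the LM arrays. Here the groups overlapped, and the difference was 0.29 ± 0.31 with a 95% interval of -0.38 to 0.97 (limma on separate probe sets, adjusted p = 0.890), where the interval of the brightest probe set in the same fit is 1.40 to 2.36. The contrast between the probe sets was not itself tested. The third read 36.1 and 1.7 on the arrays labelled KO and 6.8 and 22.9 on the LM arrays, all below background. The sources used here do not say where each lies in the transcript. Averaging the 3 probe sets gave 0.71 for Mid1 and ended its call (limma adjusted p = 0.549).

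The region upstream of Mid1 is shown because Mid1 was the 1 member called, with the antioxidant response element core (TGACNNNGC, the site of NRF2-type factors, searched on both strands) in capitals. RefSeq lists 3 Mid1 starts in GRCm38.p6, and 1 of the 3 windows of 250 bases before to 50 bases after the start holds this core. The core occurs in 12.39% of all 32851 promoter windows and in 13.99% of the 27025 genes with a window. It occurs in 3 of the 28 tested members with a window (10.71%), namely Mid1, Trim2 and Trim59. The Mid1 match begins 196 bases before the start, and it is a match of letters only. The 250 bases are at chrX:169684949-169685198, plus strand.
Mid1: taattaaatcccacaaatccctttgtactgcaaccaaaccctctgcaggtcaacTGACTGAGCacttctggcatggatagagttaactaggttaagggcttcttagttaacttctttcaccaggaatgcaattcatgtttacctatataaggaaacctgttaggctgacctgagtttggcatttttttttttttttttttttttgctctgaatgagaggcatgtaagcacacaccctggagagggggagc

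Across the 38 tested members 1 was called higher on the arrays labelled KO (2.63%) and 0 lower in limma, against 0.133% of all 11253 tested genes called higher and 0.142% called lower (0.275% in either direction). At an unadjusted p below 0.05 there were 4 members, Mid1, Trim2, Trim33 and Trim68, or 10.5% of the 38, against 8.39% of all genes. The groups did not overlap for 13 of the 38 members (34.2%), against 37.4% of all genes. Of these 13, 5 were higher and 8 lower on the arrays labelled KO, against 19.1% and 18.3% of all genes. The family's median difference was -0.01, with 17 members higher and 21 lower, where 50.3% of all genes were higher and their median was 0.00181. The shares at an unadjusted p, without overlap and higher are near those of the whole table, and the called share rests on Mid1 alone. For 29 of the 38 the 95% interval lay within a 2-fold change in both directions (76.3%, against 75.9% of all genes), and for 20 it lay within 1.5-fold (52.6%, against 38.4%). The family's median level was 9.92, against 9.21 for all genes, and its median standard error 0.205, against 0.220. Its median absolute difference was not smaller (0.179, against 0.169). The part of level in the 1.5-fold share was not tested.

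**Figure D1:**
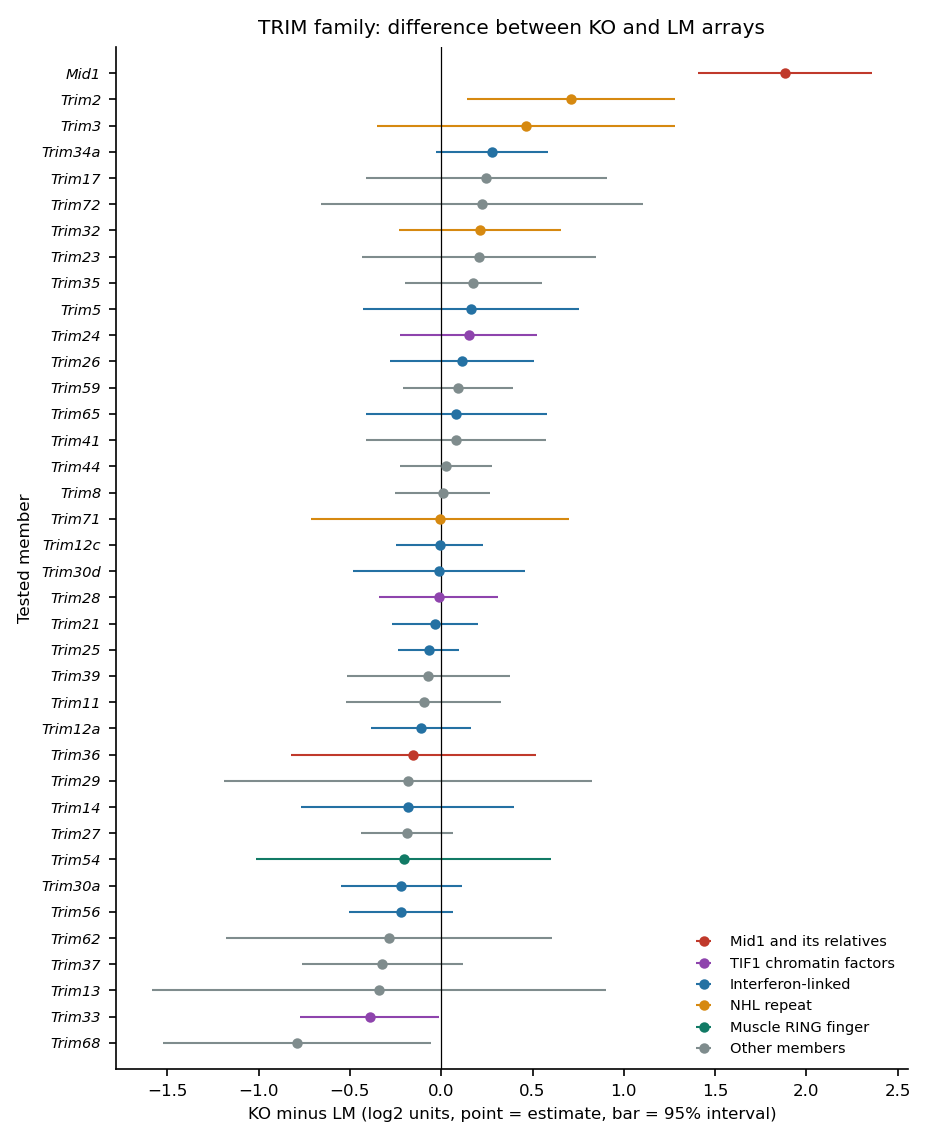
Differences between the arrays labelled KO and the LM arrays (horizontal axis, log2 units) for the 38 tested TRIM family genes, coloured by role, with points as limma estimates and bars as 95% intervals. Mid1 stands at 1.88 with an interval of 1.41 to 2.36, while the other 37 lie between -0.79 and 0.71.

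**Figure D2:**
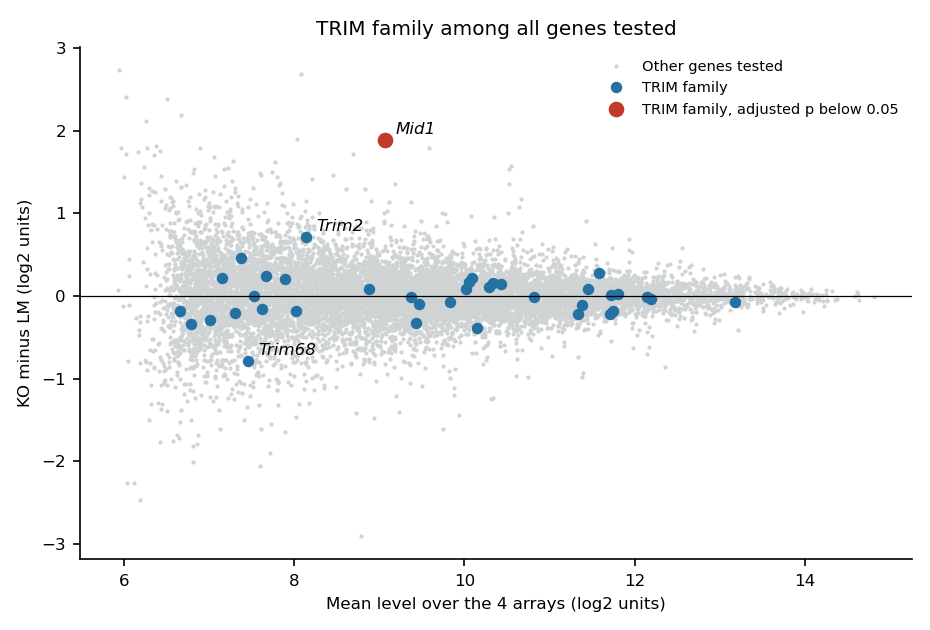
Difference (vertical axis, log2 units) against mean level over the 4 arrays (horizontal axis, log2 units) for all 11253 tested genes in grey and the 38 TRIM family genes in colour. Mid1, in red, is the 1 family member with an adjusted p below 0.05, and the remaining members lie within the cloud of all genes.

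Of Mid1 and its 5 relatives in the family (Mid2, Trim9, Trim36, Trim46 and Trim67), 2 of 6 were tested. Besides Mid1 this was Trim36, known in mouse sperm as haprin, whose brightest probe set read 170 and 178 on the arrays labelled KO and 187 and 191 on the LM arrays (-0.15 ± 0.31, limma adjusted p = 0.949). Its other probe set read 261 and 280 on the arrays labelled KO, against 112 and 120 on the LM arrays. The groups did not overlap on this probe set, and its difference was 1.08 ± 0.31 with a 95% interval of 0.41 to 1.76 (limma on separate probe sets, adjusted p = 0.313). With a pseudocount of 64, where this probe set becomes the brightest, the Trim36 difference was 0.87. Mid2, Trim9, Trim46 and Trim67 were below background on every array.

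Of 10 members of the alpha4 and PP2A list, all tested, 0 were called in limma, and the list median was -0.04. At an unadjusted p below 0.05 there were 2, both lower (20%, against 8.39% of all genes). Ppp2r1b, a PP2A scaffold subunit, read 1557 and 1341 on the arrays labelled KO, against 1979 and 2002 on the LM arrays (-0.46 ± 0.15, limma adjusted p = 0.393). Ppp4c, the catalytic subunit of a related phosphatase, read 695 and 860 on the arrays labelled KO, against 1016 and 1136 on the LM arrays (-0.46 ± 0.19, limma adjusted p = 0.546). For both genes the arrays labelled KO were the lower pair.

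Of the 13 interferon-linked members 12 were tested, with 0 called in limma (against 0.275% of all genes). At an unadjusted p below 0.05 there were also 0 (against 8.39% of all genes). Their median difference was -0.02, with 4 higher and 8 lower, between -0.22 and 0.28. The cores of the interferon-stimulated response element (ISRE) in their promoters are shown because most of these genes share them. The core, GAAA and GAAA with any 2 bases between, was searched on both strands in the windows of 250 bases before to 50 bases after each start. It occurs in 8 of the 10 tested interferon-linked genes with a RefSeq window, against 1 of 18 other tested members (Trim2). Of all genes with a window 3.99% hold it, and 3.44% of all windows. Each line gives 30 bases from GRCm38.p6 on the strand on which the core reads as above, with the core in capitals. In Trim21 and Trim26 a pair of overlapping matches is joined.
Trim21: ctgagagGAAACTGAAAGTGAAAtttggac
Trim34a: gcagagaaaaGAAACTGAAActccaaacca
Trim5: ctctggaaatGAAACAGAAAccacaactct
Trim12a: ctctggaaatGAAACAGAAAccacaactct
Trim12c: agctggaaatGAAACAGAAAccacaactct
Trim30a: caggaactgaGAAAAAGAAActaaagaact
Trim30d: caggaactgaGAAAAAGAAActaaagaact
Trim26: ggcccgaGAAAAGGAAAGTGAAAtcggaag

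A match is one of letters only. The positions, with the strand printed, are chr7:102565447-102565476 (minus strand) for Trim21, chr7:104244457-104244486 (minus) for Trim34a, chr7:104288136-104288165 (plus) for Trim5, chr7:104315466-104315495 (plus) for Trim12a, chr7:104353359-104353388 (plus) for Trim12c, chr7:104465210-104465239 (plus) for Trim30a, chr7:104507871-104507900 (plus) for Trim30d and chr17:36836979-36837008 (minus) for Trim26. The 30 bases are the same in Trim5 and Trim12a, and the same in Trim30a and Trim30d, which are neighbouring genes. Probes may detect transcripts of more than 1 of these similar genes, so their single values are uncertain. The 8 genes with the core had a median difference of -0.01, with 3 higher and 5 lower.

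Trim25, which ubiquitinates the RNA sensor RIG-I, read 9000 and 8977 on the arrays labelled KO, against 8836 and 10119 on the LM arrays. The groups overlapped, and the difference of -0.07 ± 0.08 (limma adjusted p = 0.886) had an interval of 84.9% to 107% of the LM level. Its other probe sets differed the other way, by 0.08 and 0.19, the last with a 95% interval of -0.09 to 0.47 on the log2 scale. Trim21, a cytosolic antibody receptor, read 4487 and 4688 on the arrays labelled KO, against 4302 and 5193 on the LM arrays (-0.04 ± 0.11, limma adjusted p = 0.972). The LM pair enclosed the other, and the second Trim21 probe set differed by -0.17. Trim12c, a mouse relative of the capsid-binding TRIM5 of primates, read 4804 and 4165 on the arrays labelled KO, against 4514 and 4567 on the LM arrays (-0.01 ± 0.11, limma adjusted p = 0.995), and its second probe set differed by 0.21 (-0.12 to 0.55). Trim12a read 2566 and 2518 on the arrays labelled KO, against 2660 and 2877 on the LM arrays (-0.11 ± 0.13, limma adjusted p = 0.888), without overlap.

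Trim30a, which restrains NF-kB signalling in mice, read 2614 and 3562 on the arrays labelled KO, against 3580 and 3622 on the LM arrays. After normalization the groups overlapped. The difference of -0.22 ± 0.15 (limma adjusted p = 0.793) depended on KO replicate 1: it was 0.02 without that array and -0.46 without KO replicate 2. Trim56, a regulator of nucleic acid sensing, read 2517 and 2262 on the arrays labelled KO, against 2709 and 2896 on the LM arrays (-0.22 ± 0.13, limma adjusted p = 0.727), and its groups did not overlap. Trim5 read 1603 and 1130 on the arrays labelled KO, against 1667 and 858 on the LM arrays, with wide spreads in both groups (0.16 ± 0.27). The remaining ones were Trim26 (0.11), Trim65 (0.08), which acts on the sensor MDA5, Trim30d (-0.01) and Trim14 (-0.18), an adaptor of the MAVS pathway that lacks a RING.

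Trim34a gave opposite signs by probe set. Its brightest probe set read 3194 and 3489 on the arrays labelled KO, against 3056 and 2509 on the LM arrays (0.28 ± 0.14, limma adjusted p = 0.655), while the other read 2122 and 2476 on the arrays labelled KO, against 3088 and 2392 on the LM arrays (-0.25 ± 0.16). The first difference was 0.12 without LM replicate 2 and 0.44 without LM replicate 1. A pair of probe sets shared by Trim34b and Trim34a were also lower, by differences of -0.30 and -0.27. The probe set shared by Trim30d and Trim30a read 2852 and 2525 on the arrays labelled KO, against 3963 and 3785 on the LM arrays, a difference of -0.52 without overlap. Over the adjacent Trim genes around Trim34a and Trim30a on chromosome 7, 11 single-gene and 4 shared probe sets were above background. The fourth shared one, of Gm38525 and Trim30b, read 429 and 519 on the arrays labelled KO, against 370 and 337 on the LM arrays, a difference of 0.41 without overlap. Of these 15, 4 were higher and 11 lower on the arrays labelled KO, with a median of -0.11. They may detect shared transcripts and are not independent, and no test was made over them.

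The pathways around these members were measured in the same fit. For the RNA and DNA sensing list all 13 genes found on the array were tested and 0 were called in limma (median -0.13). At an unadjusted p below 0.05 lay 2, both lower (15.4%, against 8.39% of all genes). Ikbke, a kinase upstream of interferon genes, read 1250 and 1682 on the arrays labelled KO, against 1947 and 2278 on the LM arrays (-0.53 ± 0.18, limma adjusted p = 0.393). For interferon-stimulated genes outside the family, all 28 found on the array were tested and 0 were called in limma. The median was -0.10, with 18 of 28 lower (35.7% higher, against 50.3% of all genes). At an unadjusted p below 0.05 lay 2 genes (7.14%, against 8.39% of all genes). These were Ifit1, with 3382 and 3628 on the arrays labelled KO against 4818 and 4951 on the LM arrays (-0.47 ± 0.11, limma adjusted p = 0.149), and Ifit3 (-0.66 ± 0.16, limma adjusted p = 0.190). Both KO values were the lower pair for each.

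**Figure D3:**
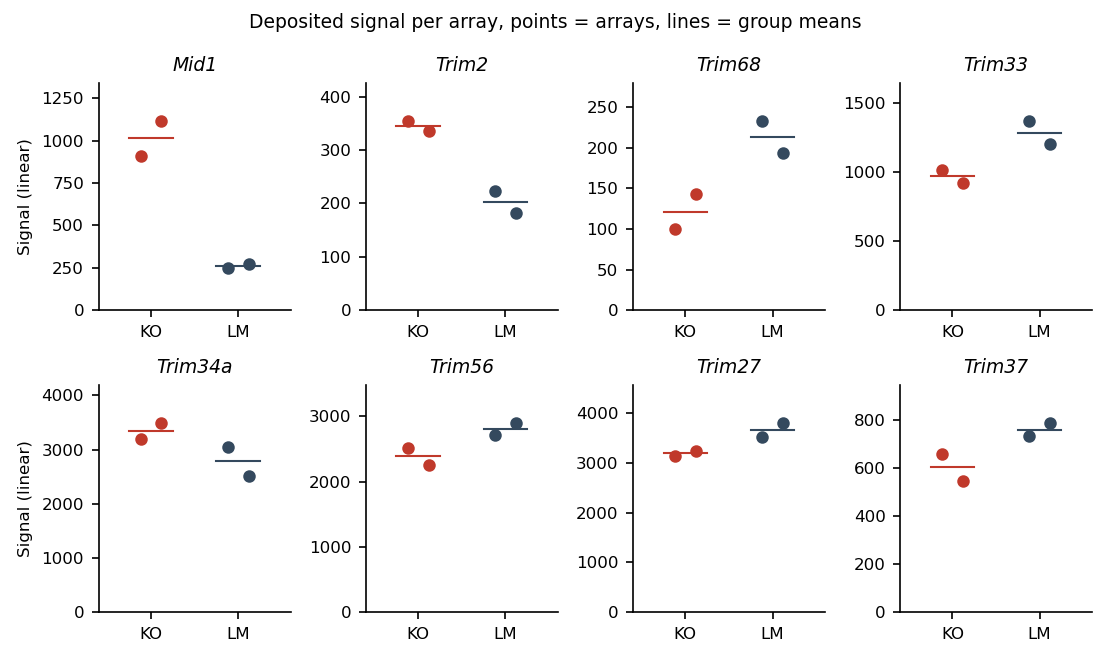
Deposited linear signal (vertical axis, starting at 0) on each array for the 8 members with the smallest unadjusted p, with arrays labelled KO on the left and LM arrays on the right, points as arrays and lines as group means. Mid1 shows 913 and 1118 on the arrays labelled KO against 251 and 275 on the LM arrays. In the other 7 panels the groups do not overlap but lie much closer together. Choosing members by smallest p favours groups without overlap, which 37.4% of all tested genes have.

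The TIF1 members Trim24, Trim28 and Trim33 were tested, and Trim66 was not. Trim33 (TIF1-gamma), which acts on SMAD proteins in TGF-beta signalling, read 1016 and 921 on the arrays labelled KO, against 1370 and 1202 on the LM arrays. The arrays labelled KO were both lower, by -0.39 ± 0.18 (limma adjusted p = 0.584), and the other probe sets of Trim33 differed by -0.03 and 0.11. Trim28 (KAP1), the corepressor that brings the methyltransferase SETDB1 to zinc finger proteins, read 1684 and 1883 on the arrays labelled KO, against 1816 and 1790 on the LM arrays (-0.01 ± 0.15, limma adjusted p = 0.994), and its interval ran from 79.0% to 124% of the LM level. Trim24, a nuclear receptor cofactor, differed by 0.15 ± 0.17 (limma adjusted p = 0.889), and its other probe sets by -0.05 and -0.30. The first value was 0.03 without KO replicate 2, 0.04 without LM replicate 2 and 0.27 without KO replicate 1.

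Partners of the TIF1 proteins gave 0 calls among 12 tested, with a median of -0.01. At an unadjusted p below 0.05 were 2, both higher (16.7%, against 8.39% of all genes). Smad3, a TGF-beta signal transducer, read 2695 and 3031 on the arrays labelled KO, against 1995 and 1866 on the LM arrays, without overlap (0.57 ± 0.14, limma adjusted p = 0.187). The other was Chd4, a nucleosome remodelling ATPase (0.24 ± 0.11, limma adjusted p = 0.581).

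All 4 members with NHL repeats, a propeller domain that can bind RNA or protein, were tested. Of these 0 were called, against 0.275% of all genes. Trim2, which ubiquitinates neurofilament in neurons, read 355 and 336 on the arrays labelled KO, against 223 and 182 on the LM arrays. The groups did not overlap (0.71 ± 0.26, limma adjusted p = 0.441), but the 3 further Trim2 probe sets above background differed by 0.45, 0.10 and -0.45. Trim3 read 131 and 250 on the arrays labelled KO, against 122 and 124 on the LM arrays (0.46 ± 0.38, limma adjusted p = 0.831). Its difference depended on KO replicate 2: it was 0.06 without that array and 0.87 without KO replicate 1. Trim32, a ligase mutated in a human muscular dystrophy, differed by 0.21 and Trim71, a stem cell factor, by -0.01.

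Among the 16 tested members outside these groups and the muscle RING fingers, 8 were higher and 8 lower. Of the 16, 0 were called, against 0.275% of all genes. Trim68, in human cells a regulator of the androgen receptor, read 99.9 and 143 on the arrays labelled KO, against 233 and 194 on the LM arrays. It had the lowest difference of the family, -0.79 ± 0.34 (limma adjusted p = 0.555), without overlap, and 1 probe set above background. Trim27, which restrains the potassium channel KCa3.1 in CD4 T cells, read 3140 and 3236 on the arrays labelled KO, against 3520 and 3792 on the LM arrays (-0.19 ± 0.12, limma adjusted p = 0.751). All 6 of its probe sets above background were lower, between -0.43 and -0.01. Trim37, a centrosome regulator, read 659 and 549 on the arrays labelled KO, against 734 and 788 on the LM arrays (-0.32 ± 0.20, limma adjusted p = 0.756), but 1 of its 5 probe sets above background was higher, at 0.32.

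Trim44 and Trim8 were among the members with the highest level. Trim44, which lacks a RING, read 3790 and 3381 on the arrays labelled KO, against 3438 and 3667 on the LM arrays, a difference of 0.02 ± 0.11 with an interval of 85.5% to 121% of the LM level. Trim8, a regulator of SOCS1, read 3240 and 3474 on the arrays labelled KO, against 3239 and 3515 on the LM arrays (0.01 ± 0.12, limma adjusted p = 0.996). The groups overlapped for both genes. The rest were Trim17 (0.25), Trim72 (0.22), a membrane repair protein of muscle, Trim23 (0.21), which carries an ARF GTPase domain, Trim35 (0.18), Trim59 (0.09), Trim41 (0.08), Trim39 (-0.07), Trim11 (-0.10), Trim29 (-0.18), Trim62 (-0.29) and Trim13 (-0.34). Of these, Trim29 and Trim13 exceeded background on only 1 array in each group. Of the muscle RING fingers, Trim54 differed by -0.20 near background, and Trim63 was not tested.

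**Figure D4:**
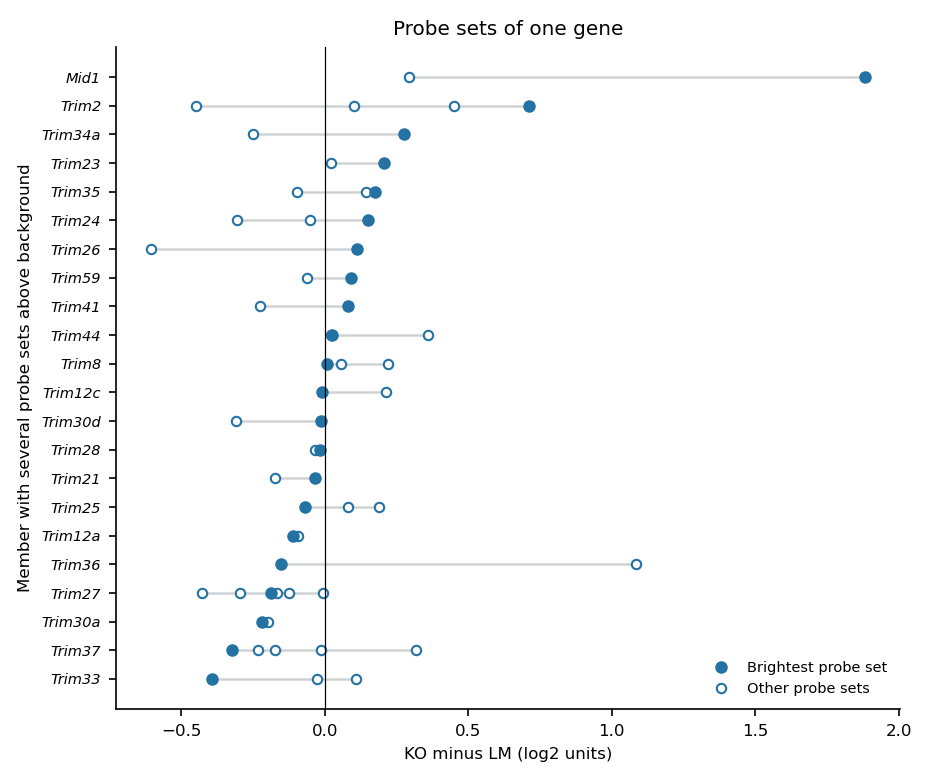
Difference (horizontal axis, log2 units, arrays labelled KO minus LM arrays) of each probe set above background for the 22 family genes with several such probe sets, the brightest one filled. In 12 of the 22 genes the probe sets disagree in sign, among them Trim36 with -0.15 and 1.08.

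Of 22 members with several probe sets above background, 10 had 1 sign throughout and 12 had both signs. Over the 37 probe sets that did not represent their gene the differences ran from -0.60 for Trim26 to 1.08 for Trim36, with a median of -0.03. The only one of the 37 to differ by 2-fold or more was that of Trim36, and 0 were called in limma on separate probe sets, where 6 of the family's 75 tested probe sets (8.0%) lay at an unadjusted p below 0.05, against 7.97% of all 21793.

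The E2 family genes listed as partners of TRIM RING domains gave 0 calls among 11 tested (median 0.10, 8 higher and 3 lower). Ube2g2 was lowest at -0.33 and Ube2v1 highest at 0.27. Genes of TRIM type, or with COS or B-box domains, under other symbols gave 0 calls among 5 tested (median 0.04). Both lists had 0 genes at an unadjusted p below 0.05. Of all genes 0.275% were called and 8.39% lay at an unadjusted p below 0.05. The second list includes Pml, the organiser of nuclear bodies. Pml read 660 and 691 on the arrays labelled KO against 831 and 889 on the LM arrays (-0.33 ± 0.19, limma adjusted p = 0.722).

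A pair of other gene groups held called genes. Cell cycle genes were lower in 22 of 22 tested, with 7 called (Mki67, Top2a, Kif11, Ube2c, Cenpe, Ccna2 and Cenpf) and a median of -0.84. Mki67, a marker of dividing cells, read 3743 and 3979 on the arrays labelled KO, against 6674 and 7362 on the LM arrays (-0.86 ± 0.10, limma adjusted p = 0.00285). Regulatory T cell genes were higher in 9 of 9 tested, with 1 called (Izumo1r, 0.58 ± 0.09, limma adjusted p = 0.0213) and a median of 0.48. Of all genes 0.275% were called and 50.3% were higher. At an unadjusted p below 0.05 lay 81.8% of the cell cycle list and 44.4% of the regulatory T cell list, against 8.39% of all genes. The 4 regulatory T cell markers Foxp3, Il2ra, Ikzf2 and Ctla4, all above background, summed to 5496 and 4795 on the arrays labelled KO and 3827 and 3577 on the LM arrays. The largest part was Ikzf2, with 2954 and 2742 on the arrays labelled KO and 1943 and 2122 on the LM arrays (limma adjusted p = 0.245). Il2ra, which encodes the CD25 that the sort selected against, read 963 and 949 on the arrays labelled KO, against 611 and 540 on the LM arrays (limma adjusted p = 0.221). The groups overlapped for Foxp3, with 794 and 363 on the arrays labelled KO and 499 and 289 on the LM arrays (limma adjusted p = 0.804). They also overlapped for Ctla4 (limma adjusted p = 0.921). The part of either shift in the Mid1 difference was not tested.

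**Figure D5:**
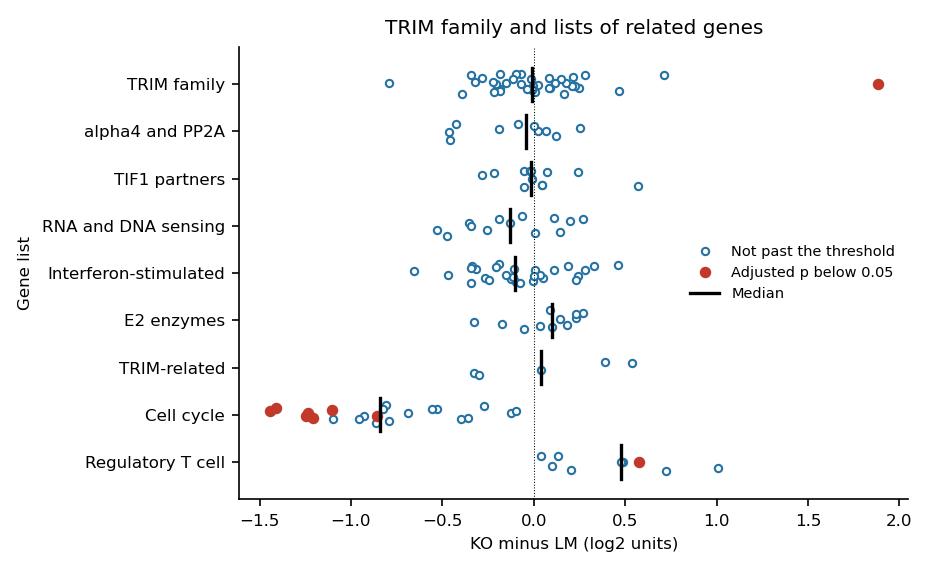
Differences (horizontal axis, log2 units, arrays labelled KO minus LM arrays) of the tested genes of the TRIM family and of the related lists, with called genes in red and list medians as black bars. The TRIM family median is -0.01 with Mid1 apart at 1.88, while cell cycle genes have a median of -0.84 and regulatory T cell genes 0.48.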

How the data were processed

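The deposited table holds linear intensities for probe sets, 1 column per array, and the 2%-trimmed mean of each array was 500.0. The sources used here do not name the program behind these intensities. Per the labels' protocols, Trizol RNA went through WT-Ovation Pico amplification and biotin labelling. Of 45101 probe sets, 64 controls were left out, and the platform annotation gave 34945 a single symbol, 932 several and 9160 none. Signals were taken as log2(value + 16) and quantile normalized, and 11253 genes were tested with limma 3.58.1 in R 4.3.3 (lmFit, eBayes with an intensity trend, genotype as the only term), two-sided, with Benjamini-Hochberg adjustment over all tested genes and a threshold of 0.05. The median standard error was 0.22, and the number of arrays limits the precision. Correlations between arrays ran from 0.961 to 0.974. The script was tested on simulated data. Python 3.11.15, pandas 2.3.3 and matplotlib 3.10.9 were used for sequences, tables and plots. Sequences are RefSeq's, in GRCm38.p6, with a window found for 49 of the 60 genes.

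Members and lists were chosen with earlier results of these data known. Named were Mid1 and Mid2, called members, the 8 with the smallest p, the 8 with the highest level, Mid1's relatives and the TIF1 and interferon-linked groups, and of each further list the called genes and up to 3 with the smallest p; the remaining members are given by name. Alternatives covered the filter, normalization, pseudocount, variance moderation, probe set choice, a replicate block and each array left out.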

Additional observations from a re-analysis of the deposited data

Results flagged for a closer look

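A Trim36 probe set that did not represent its gene in the main comparison was 1.08 higher on the arrays labelled KO (log2 difference), above both LM arrays, whereas the brightest Trim36 probe set differed by -0.15. It was singled out because, among the 37 family probe sets above background on at least 2 arrays that did not represent their gene, it was the 1 that was higher by 2-fold or more, with 261 and 280 on the arrays labelled KO and 112 and 120 on the LM arrays.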

How the results depend on the processing

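With 1 array left out, which leaves 1 array in a group, the Mid1 difference ran from 1.75 to 2.02. For these 4 fits only differences are given. The prior degrees of freedom, the weight limma gives to the shared variance, were 9.95 in the main fit. They were 120 without LM replicate 1, 173 without LM replicate 2, 12.2 without KO replicate 1 and 11.2 without KO replicate 2. Mid1 was called in 8 of 11 other settings. It was not called without the filter on dim genes (1.88, adjusted p = 0.0713), without the eBayes trend (1.88, adjusted p = 0.232) or with the mean of all probe sets (0.71, adjusted p = 0.549). In each of those 3 settings 0 members were called in limma, with 5 of 60, 3 of 38 and 2 of 37 at an unadjusted p below 0.05 (8.33%, 7.89% and 5.41%, against 6.85%, 8.18% and 8.90% of all genes). Over all genes 31 of 11253 were called (0.275%), against 0 without the filter and 0 without the trend. At an unadjusted p below 0.05 these 2 settings had 1247 of 18193 and 921 of 11253. With probe set means 24 genes were called (945 of 10622 at an unadjusted p below 0.05). Median centring gave 81 of 11254 genes (0.72%). With separate probe sets the unit is the probe set, and 50 of 21793 were called, a share of 0.229%. With 1 array left out 35 to 85 genes were called (53 without KO replicate 1, 35 without KO replicate 2, 68 without LM replicate 1 and 85 without LM replicate 2). The cause of these changes was not tested. The family median of -0.01 was -0.0696 with median centring, where the median of all genes was -0.0460. With probe set means it was -0.0691, against -0.00816 for all genes. With 1 array left out it ran from -0.0450 (without LM replicate 1, all genes -0.0137) to 0.0371 (without LM replicate 2, all genes 0.00857). Replicate numbers are shared between the groups, but with 2 pairs nothing shows that they pair the samples. Replicate deviations correlated at -0.0167 over genes. The replicate block gave 43 called genes of 11253 (0.382%), with Mid1 at 1.88 and 1 member of 38 called (2.63%).

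None of the other 37 members was called in any setting. Signs changed in 13 of 404 values with other settings: without normalization for Trim71 (0.0417) and Trim8 (-0.00835), with median centring for Trim44 (-0.0379) and Trim8 (-0.0581), with a pseudocount of 64 for Trim36 (0.87), and with probe set means for Trim12c (0.10), Trim23 (-0.15), Trim24 (-0.0691), Trim25 (0.0678), Trim26 (-0.25), Trim36 (0.47), Trim41 (-0.0719) and Trim71 (0.55). With 1 array left out they changed for 20 members, whose ranges were -0.10 to 0.0801 for Trim12c, -0.63 to 0.53 for Trim13, -0.13 to 0.0619 for Trim21, -0.0450 to 0.27 for Trim26, -0.10 to 0.0708 for Trim28, -0.46 to 0.0204 for Trim30a, -0.18 to 0.16 for Trim30d, -0.0316 to 0.45 for Trim32, -0.16 to 1.17 for Trim36, -0.32 to 0.17 for Trim39, -0.0919 to 0.25 for Trim41, -0.0364 to 0.0867 for Trim44, -0.31 to 0.64 for Trim5, -0.47 to 0.0564 for Trim54, -0.0338 to 0.22 for Trim59, -0.58 to 0.00240 for Trim62, -0.25 to 0.41 for Trim65, -0.18 to 0.17 for Trim71, -0.13 to 0.58 for Trim72 and -0.0612 to 0.0725 for Trim8. Of the 18 members with 1 sign throughout, 9 moved by over 1.5 times: -0.16 to -0.04 for Trim11, -0.25 to -0.12 for Trim14, 0.05 to 0.37 for Trim23, 0.03 to 0.27 for Trim24, -0.11 to -0.03 for Trim25, -0.34 to -0.01 for Trim29, 0.06 to 0.87 for Trim3, 0.12 to 0.44 for Trim34a and -0.46 to -0.18 for Trim37. The brightest probe set was chosen anew in each fit, which moved Trim36 to its other probe set without LM replicate 1 (0.98) and without LM replicate 2 (1.17). Trim13 and Trim29 did not pass the filter in every fit with 1 array left out. The Trim13 range rests on the fits without KO replicate 2 and without LM replicate 2. The Trim29 range rests on those without KO replicate 1 and without LM replicate 1. A lone array is assumed to vary like the other group. Signals near background limit the dim members.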
